A study of Homo sapiens with 12 samples.

Results

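The genes described here are those that encode the proteins of the cytosolic ribosome. They were chosen by symbol alone, as every listed gene named RPL or RPS with a number and at most one of the letters A, X, L or Y, together with RPSA, RPLP0, RPLP1, RPLP2 and RPL36AL and without the Y-linked members. The rule found 82 genes of the 19907 listed, 32 of the small subunit and 50 of the large subunit. They were measured by RNA-seq in 12 libraries of MDA-MB-231, an established triple-negative breast cancer cell line. The wt-GR cells were a non-targeted clone recovered from the CRISPR-treated population, and the S134A-GR cells were 1 clone in which CRISPR knock-in had replaced a phosphorylated serine of the glucocorticoid receptor (GR) by alanine on both alleles. Serum was reduced to 1% and charcoal-stripped for 18 h in every culture. TGFβ1 (10 ng/mL) or its vehicle was then added for 6 h, and each of the 4 combinations of line and treatment had 3 libraries. Each genotype was 1 clone, so the alanine substitution and other differences between the clones cannot be told apart. The labels do not say that replicates were separate cultures, so the p-values measure only the spread between these libraries.

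Each cytosolic ribosome is assembled from a small and a large subunit, and each subunit carries its proteins in single copies on a scaffold of ribosomal RNA, apart from the stalk proteins. Ribosomal protein mRNAs are among the most abundant in growing cells. Most begin with a C followed by an unbroken run of pyrimidines, the terminal oligopyrimidine (TOP) tract, through which mTORC1 and the RNA-binding protein LARP1 control their translation and stability as a group.

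The start of the transcript is shown first because it is the sequence that these genes share and that the rule did not use. In the RefSeq promoter table (GRCh38.p14), 65 members were matched, and 46 of them (70.8%) had a C followed by at least 4 further pyrimidines (C or T) exactly at an annotated start, against 5.14% of 27305 genes in the table. The tracts ran from 5 to 19 bases, with a median of 8. When the tract could begin anywhere within 10 bases of an annotated start, 58 members had one (89.2%), against 38.4% of all genes. The window was read on the gene's own strand only, and no match says only that these letters are absent there. The sequences below belong to members that the later results turn on. Each shows 8 bases before the annotated start and 20 from it, in lower case with a tract that begins at the start in capitals.
RPS3, chr11:75399510-75399537, + strand: agccacttCCTTTCCTTTCagcggagcg
RPS25, chr11:119018324-119018351, - strand: agcgcttcCTTTTTgtccgacatcttga
RPS27A, chr2:55232680-55232707, + strand: cgttcttcCTTTTCgatccgccatctgc
RPSA, chr3:39406712-39406739, + strand: ccgcctgtCTTTTCCgtgctacctgcag
RPL21, chr13:27251550-27251577, + strand: gcctctttCCTTTCggccggaaccgcca
RPL13, chr16:89560674-89560701, + strand: gccgcttcCTTTCCgctcggctgttttc
RPL35, chr9:124861938-124861965, - strand: cctacttcCTCTTTCCCTCggagcgggc
RPL24, chr3:101686699-101686726, - strand: gattctctCTTTCTTTTCgccatctttt
RPL34, chr4:108620568-108620595, + strand: tttttcttCCTCTTCCggggacgttgtc
RPL39, chrX:119791611-119791638, - strand: gccagcttCCCTCCTCTTCCTTTCTCCg
RPS18, chr6:33272067-33272094, + strand: cttccgctCTCTCTTCCacaggaggcct
RPS9, chr19:54200850-54200877, + strand: ttccgcgcCTCTTTCTCagtgaccgggt
RPS7, chr2:3575252-3575279, + strand: ccctcctcctcgcgctgtttccgcctct
RPL17, chr18:49492446-49492473, - strand: ccctaagcagcctgaggtgagtgtttct
The first 12 carry a tract at an annotated start. RPS7 and RPL17 do not, and are shown because their levels differed clearly between the lines. The tract was present in members that were lower in S134A-GR (RPS3, RPS25), in members that were higher (RPL35, RPL13) and in the 2 whose replicates were most scattered (RPS18, RPS9).

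The libraries held 56362036 to 129832227 recovered reads. All lie above the average number of sequenced reads per sample that the study states. The sources used here do not say what unit was counted as 1 read. The deposited values are normalized counts, that is, reads per gene divided by the library's DESeq2 size factor, and 1 read was worth 0.715 to 1.63 normalized counts. Members took 6.03% to 6.81% of all reads of a library. Markers fixed for the cell line gave a high level in every library for VIM (at least 419832), CD44, EGFR and NR3C1, which encodes GR, whereas ESR1 and CDH1 stayed at or under 12.5 normalized counts. EPCAM, listed as low, was at 318 to 1093. Of the defining markers of other cell types, PTPRC, ALB and COL3A1 did not exceed 17.2 and PECAM1 was at 746 to 1454. NR3C1 averaged 11771 ± 1186 and 10775 ± 478 normalized counts in wt-GR under vehicle and TGFβ1, and 8815 ± 259 and 8692 ± 612 in S134A-GR (SD, n = 3), but counts per gene cannot show a single altered codon.

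The members formed a narrow, abundant block with a short tail. To compare levels between genes, the mean normalized count over the 12 libraries was divided by the length of the coding sequence in kilobases. On that scale the highest level was that of RPLP1, a stalk protein, at 418572 per kb, followed by RPS29 (379041), RPLP0 (317909), RPL39 (317330) and RPL13A (283993). RPLP0 and RPL39 differed by less than the spread between replicates. At the other end stood RPL10L (0.131) and RPL3L (1.42), 2 paralogues best known from testis and striated muscle, followed by RPL36A (603) and RPS9 (631). RPS9 is a single-copy part of the small subunit, as are partners that were counted at far higher levels. RPL3L was listed at 0 to 3.56 normalized counts and RPL10L at 0 in 11 libraries of 12, both near or under the level of 3 reads (2.15 to 4.89 normalized counts), and no fold is given for either.

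Not every member could be read as a level. In 75 members the highest and lowest replicate of each group lay within 2-fold and at least 3 reads were present, and these are called the even members. Their median count, not divided by length, was 67733, and they had a median largest within-group ratio of 1.13. The other 7 were set apart as the rule asks, among them RPS18, RPS9, RPL41, RPL36A, RPL3L and RPL10L. Just inside the limit were RPL21, with a largest ratio of 1.75, and RPSA, with 1.39, and just outside was RPL36A with 2.04. Among all genes tested, 71.5% were even.

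RPS18, which sits in the head of the small subunit, was the most scattered. In wt-GR it was counted at 345, 447 and 1690 normalized counts under vehicle and at 2602, 12417 and 1022 under TGFβ1. In S134A-GR it was counted at 35829, 29851 and 23541 under vehicle and at 398, 28998 and 3886 under TGFβ1. Replicates of a single group spanned up to 72.9-fold, and the S134A-GR vehicle libraries alone stood together at a high level. RPS18 was higher in S134A-GR under vehicle (log2 fold change 5.52 ± 1.19, SE; adjusted p = 0.00130) but not under TGFβ1 (0.15 ± 1.19, adjusted p = 0.934). The test of the difference in response between the lines did not pass for RPS18 (-5.37 ± 1.68, adjusted p = 0.312) or for RPS9 (3.41 ± 1.13, adjusted p = 0.356), although for RPS9 it did without replicate 2 of S134A-GR under vehicle (adjusted p = 0.0485).

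RPS9, a core protein of the small subunit, was counted at 316, 862 and 750 in wt-GR under vehicle and at 47.8, 102 and 112 under TGFβ1. In S134A-GR it was at 72.6, 949 and 110 under vehicle and at 534, 108 and 440 under TGFβ1. Its fall with TGFβ1 in wt-GR passed the test (-2.83 ± 0.80, adjusted p = 0.0215) but not without replicate 2 of the vehicle group or replicate 1 of the TGFβ1 group, where the adjusted p reached 0.0938, and 2 of the 3 S134A-GR vehicle libraries were as low as those TGFβ1-treated wt-GR libraries. RPL41, the shortest ribosomal protein, reached 10506 in 1 wt-GR vehicle library and 1923 and 3040 in the other 2, and no comparison of it passed with all libraries. Without replicate 3 of S134A-GR under TGFβ1 the difference of RPL41 between the TGFβ1-treated lines did (adjusted p = 0.026).

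RPS18, RPS9 and RPL41 shared a feature of the reference. Of the 75-base stretches that lie inside single exons of their transcripts, 100% for RPS18 and RPS9 and 98.9% for RPL41 also occur, letter for letter, on alternate scaffolds of hg38. RPS18 (chr6:33272075-33276511, + strand) has such copies on 5 scaffolds and RPS9 (chr19:54200809-54249003, + strand) on 9. No even member exceeded 80.8%, the value of RPL9, and 66 members had none. The sources used here do not state whether the index the reads were aligned to held the alternate scaffolds, and the part of these copies in the scatter was not tested. RPL36A differed from these, because it has no copy on an alternate scaffold. It has exact copies elsewhere in the genome for 47.3% of all stretches of its spliced transcript, those across exon junctions included. It also shares 43.8% of its exon bases with the readthrough gene RPL36A-HNRNPH2. It was counted at 135, 161 and 146 in wt-GR and at 252, 201 and 279 in S134A-GR under vehicle, with no overlap (0.71 ± 0.22, adjusted p = 0.0152, and 0.0645 without replicate 3 of S134A-GR). Under TGFβ1 it was at 139, 124 and 131 in wt-GR and at 147, 301 and 285 in S134A-GR (0.82 ± 0.22, adjusted p = 0.00684).

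**Figure D1:**
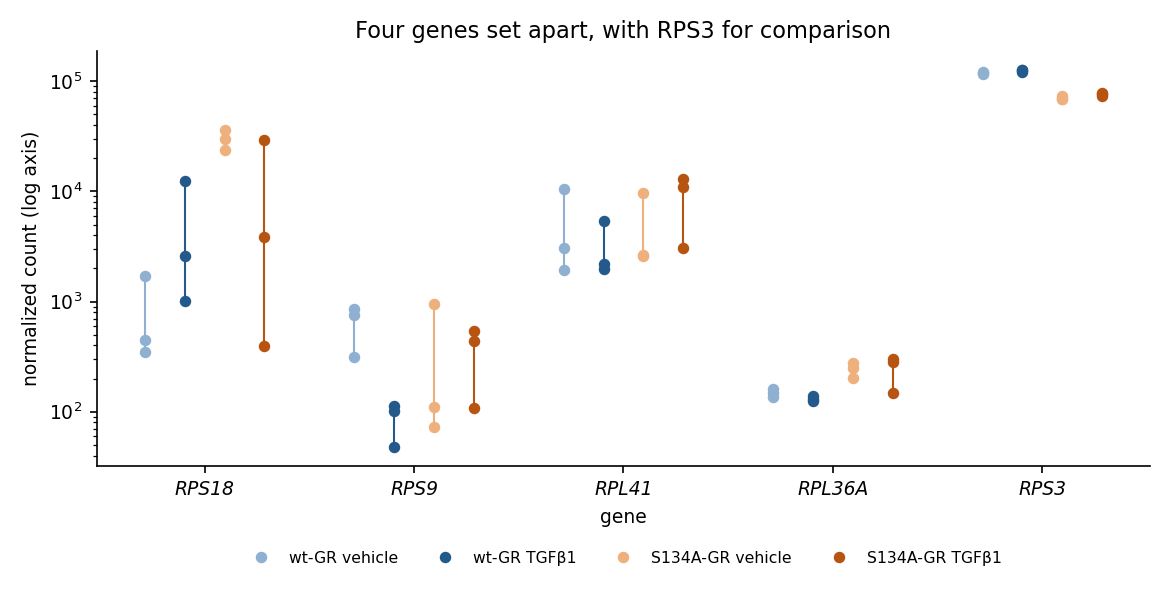
Normalized counts (log axis) of RPS18, RPS9, RPL41 and RPL36A, with RPS3 for comparison, in 4 groups distinguished by colour. Each point is 1 library and each vertical line joins the lowest and highest of the 3 replicates. RPS18 spans 345 to 35829 over the libraries, whereas the replicates of RPS3 lie so close that their points merge.

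The even members moved together from library to library. The median member stood -0.06, -0.05 and 0.09 from its own mean over all libraries, on the log2 scale, in wt-GR under vehicle, and 0.12, 0.10 and 0.14 under TGFβ1. In S134A-GR it stood -0.08, -0.09 and -0.14 under vehicle and -0.03, 0.04 and -0.04 under TGFβ1. In the wt-GR vehicle group replicate 3 lay beside the TGFβ1-treated libraries, and 73 of the 75 even members were highest there among the 3 replicates. In S134A-GR under TGFβ1, replicate 2 was the highest for 70 of 75. The median over all even genes tested stayed within 0.01 of its mean in every library. The size factors hold that median near 0, so it is not a separate result. The even members took 6.35% ± 0.40 and 6.60% ± 0.07 of all reads in wt-GR under vehicle and TGFβ1, and 6.15% ± 0.11 and 6.26% ± 0.19 in S134A-GR (SD, n = 3). Because of these 2 libraries, the main counts below are also given without them, an alternative chosen after the data were seen.

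**Figure D2:**
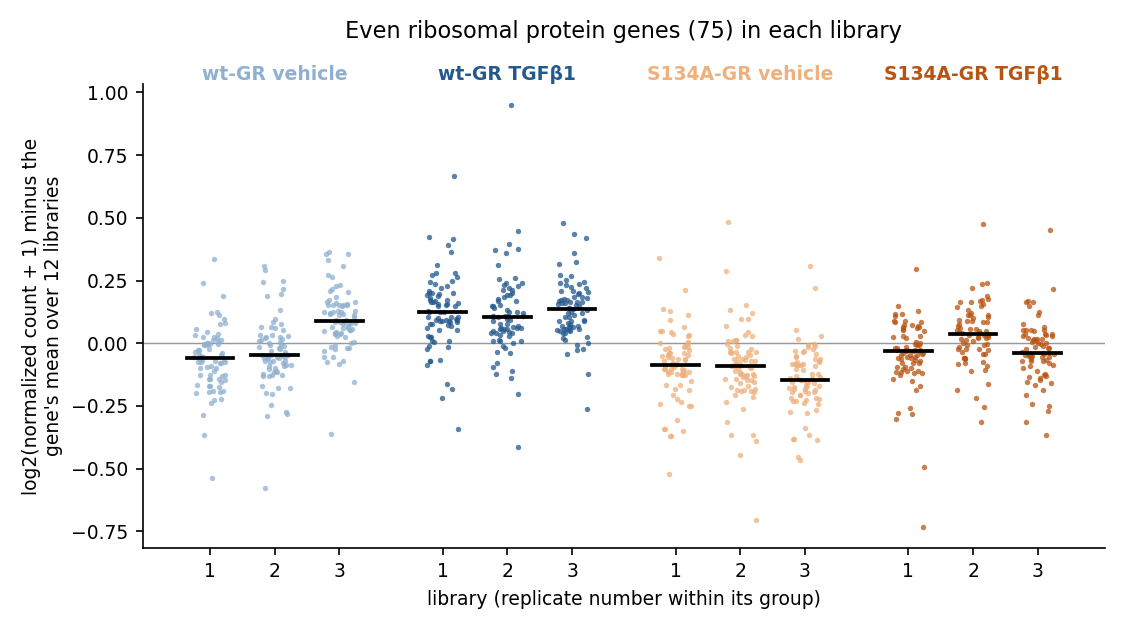
Each point is 1 of the 75 even genes in 1 of the 12 libraries, as log2(normalized count + 1) minus that gene's mean over all libraries, and the black bars are medians. Replicate 3 of wt-GR under vehicle has a median of 0.09, against -0.06 and -0.05 in the other 2 replicates of its group.

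In S134A-GR more even members were lower than higher, and the differences were small. Under vehicle 35 of 75 (46.7%) were lower and 8 (10.7%) higher, at an adjusted p under 0.05 and any fold. Over all 18579 genes tested 26.5% were lower and 25.0% higher, and over the 13293 even genes 32.9% and 30.5%. Under TGFβ1 37 members (49.3%) were lower and 6 (8%) higher, against 25.7% and 23.1% of all genes and 31.7% and 28.8% of the even genes. The median member differed by -0.08 on the log2 scale under vehicle and by -0.11 under TGFβ1, that is by -5.63% and -7.16%, against 0.02 and 0.01 for all genes tested. The size factors hold the medians over all genes near 0. No even member differed by 2-fold. Without overlap, all 3 S134A-GR libraries lay below all 3 wt-GR libraries for 38 members under vehicle and 42 under TGFβ1, where 35.4% and 34.5% of even genes did, and above them for 7 in each, where 33.4% and 32.3% did. Called lower under both treatments were 33 members and called higher under both were 6. Of all genes tested 21.9% were lower and 19.0% higher under both, and of the even genes 27.7% and 24.8%. The 2 comparisons shared no libraries in their group means. They set the same clones side by side, however, and used a common estimate of the spread for each gene, so they are not independent tests. Without the 2 libraries named above, 30 members were lower and 15 higher under vehicle, and 46 and 5 under TGFβ1, where 26.4%, 24.2%, 24.3% and 21.4% of all genes tested were.

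The small subunit contributed only lower calls, 13 of its 29 even members in each comparison and none higher at an adjusted p under 0.05. Those 13 are 44.8%, where 32.9% of even genes were lower under vehicle and 31.7% under TGFβ1. Of even genes 30.5% and 28.8% were higher. RPS3, which lines the mRNA entry channel and is also known as a DNA repair protein, differed most. It was counted at 118890, 115303 and 121168 in wt-GR and at 73891, 69154 and 68869 in S134A-GR under vehicle. Under TGFβ1 the values were 126432, 120970 and 127453 against 77461, 75792 and 73103. S134A-GR held 0.596 times the wt-GR level under vehicle (log2 fold change -0.75 ± 0.04, SE; adjusted p = 2.13e-09) and 0.604 times under TGFβ1 (-0.73 ± 0.04, adjusted p = 3.07e-09), without overlap.

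RPS25, which binds near the exit site and is needed by many viral internal ribosome entry sites, was at 49043, 49192 and 53092 in wt-GR and at 32130, 31633 and 32147 in S134A-GR under vehicle (-0.66 ± 0.04, adjusted p = 3.47e-09). Under TGFβ1 it was at 55344, 53864 and 53200 against 33646, 34819 and 33340 (-0.67 ± 0.04, adjusted p = 3.02e-09). RPS7 was at 69235, 70526 and 76484 in wt-GR against 47960, 47214 and 46667 in S134A-GR under vehicle (-0.61 ± 0.04, adjusted p = 2.63e-08). RPS27A, made as a fusion with ubiquitin, was at 39135, 41152 and 45969 against 27797, 27884 and 27622 (-0.60 ± 0.05, adjusted p = 3.13e-07) and differed by -0.62 ± 0.05 under TGFβ1 (adjusted p = 2.23e-07). RPSA, the laminin receptor precursor, was more variable. Its TGFβ1-treated libraries held 142977, 155448 and 164938 normalized counts in wt-GR and 84149, 116562 and 102439 in S134A-GR (-0.62 ± 0.11, adjusted p = 0.000202). For the values given here, every S134A-GR library lay below every wt-GR library of the same treatment.

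RPS6, the substrate of S6 kinase that is commonly used as a readout of mTORC1, was not among them. It was at 77916, 84633 and 87824 in wt-GR and at 84786, 84340 and 80540 in S134A-GR under vehicle, and the groups overlapped (0.00 ± 0.05, adjusted p = 0.968). Of the 12 even members of the head of the small subunit, a list chosen from textbook structure, 6 were lower under vehicle and 5 under TGFβ1, with medians of -0.10 and -0.13. Those are 50% and 41.7%, near the 46.7% and 49.3% of all even members, where 32.9% and 31.7% of even genes were lower.

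The large subunit held all of the higher calls, and of its 46 even members 22 were lower under vehicle and 24 under TGFβ1. Those are 47.8% and 52.2%, where 32.9% and 31.7% of even genes were lower. Its higher calls were 8 (17.4%) under vehicle and 6 (13.0%) under TGFβ1, below the 30.5% and 28.8% of even genes. RPL5 and RPL11 carry the 5S ribosomal RNA into the subunit and, when unassembled, bind MDM2. RPL5 was at 102368, 107187 and 112922 in wt-GR and at 74312, 75729 and 74479 in S134A-GR under vehicle (-0.52 ± 0.04, adjusted p = 6.89e-08), with the same order under TGFβ1 (-0.53 ± 0.04, adjusted p = 6.22e-08). RPL11 differed less, by -0.17 ± 0.04 under vehicle (adjusted p = 0.00324) and -0.20 ± 0.04 under TGFβ1 (adjusted p = 0.00117). RPL21 had the most negative value under TGFβ1, with 16335, 19853 and 11421 in wt-GR and 6194, 9517 and 10837 in S134A-GR (-0.85 ± 0.20, adjusted p = 0.00276). Its standard error was the largest of the even members. Every 75-base stretch of its spliced transcript, those across exon junctions included, has an exact copy elsewhere in the genome. The part of these copies in its level was not tested. Such copies were common, with at least 1 in 70 members and over 80% of stretches in 9, among them RPL9, RPL17 and RPL39. The share was 72.2% for RPSA, 53.8% for RPS25 and 53.5% for RPS7. Their part in the level of any member was not tested. RPL10A, named after its values were seen, was lower by a similar step under both treatments (-0.41 ± 0.04 in each, adjusted p = 4.27e-07 and 6.01e-07).

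The members that were higher in S134A-GR were few. RPL17, at the rim of the peptide exit tunnel, was counted at 1198, 1165 and 1353 in wt-GR and at 2205, 2435 and 2153 in S134A-GR under vehicle (0.87 ± 0.08, adjusted p = 8.18e-07). Under TGFβ1 it was at 1373, 1306 and 1597 against 2137, 2419 and 2380 (0.70 ± 0.08, adjusted p = 7.48e-06). These counts are low for a ribosomal protein, and 96.9% of its exon bases also belong to the readthrough gene RPL17-C18orf32, and the part of this overlap was not tested. RPL39L, a paralogue of RPL39 that is abundant in testis, was at 2848, 2655 and 3122 against 3763, 3966 and 3779 (0.42 ± 0.05, adjusted p = 1.58e-05). RPL35 was higher by 0.31 ± 0.05 (adjusted p = 0.000247) and RPL8 by 0.26 ± 0.05 (adjusted p = 0.000312) under vehicle, and by 0.23 ± 0.05 and 0.22 ± 0.05 under TGFβ1 (adjusted p = 0.00272 and 0.00126). RPL13 stood at 114641, 121275 and 140032 in wt-GR and at 157526, 164142 and 152946 in S134A-GR under vehicle (0.34 ± 0.06, adjusted p = 0.000308), and differed by 0.12 ± 0.06 under TGFβ1 (adjusted p = 0.135). RPL34 was higher under TGFβ1 by 0.13 ± 0.05 (adjusted p = 0.0405), a call lost in 10 of 22 alternative analyses.

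The 3 stalk proteins, which recruit the translation factors, were nearly level. RPLP0, a common reference gene in quantitative PCR, was at 290733, 297432 and 317066 in wt-GR and at 289012, 283755 and 284668 in S134A-GR under vehicle (-0.08 ± 0.04, adjusted p = 0.130). RPLP1 was lower in S134A-GR under TGFβ1 (-0.19 ± 0.05, adjusted p = 0.00734), and RPLP2 passed in neither comparison (-0.03 ± 0.06 and -0.10 ± 0.06). Of the 8 even proteins at the exit tunnel, 3 were higher and 3 lower under vehicle, and 2 and 3 under TGFβ1. Under vehicle that is 37.5% each way, near the 30.5% higher and 32.9% lower of even genes. Under TGFβ1 it is 25% and 37.5%, near 28.8% and 31.7%. When each library was scaled to its own median over the even members, which sets the typical member to about 0 and was chosen after the data were seen, 20 members were higher and 20 lower under vehicle and 24 and 17 under TGFβ1. The share of all genes called under this scaling was not taken, so these counts have no background beside them.

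**Figure D3:**
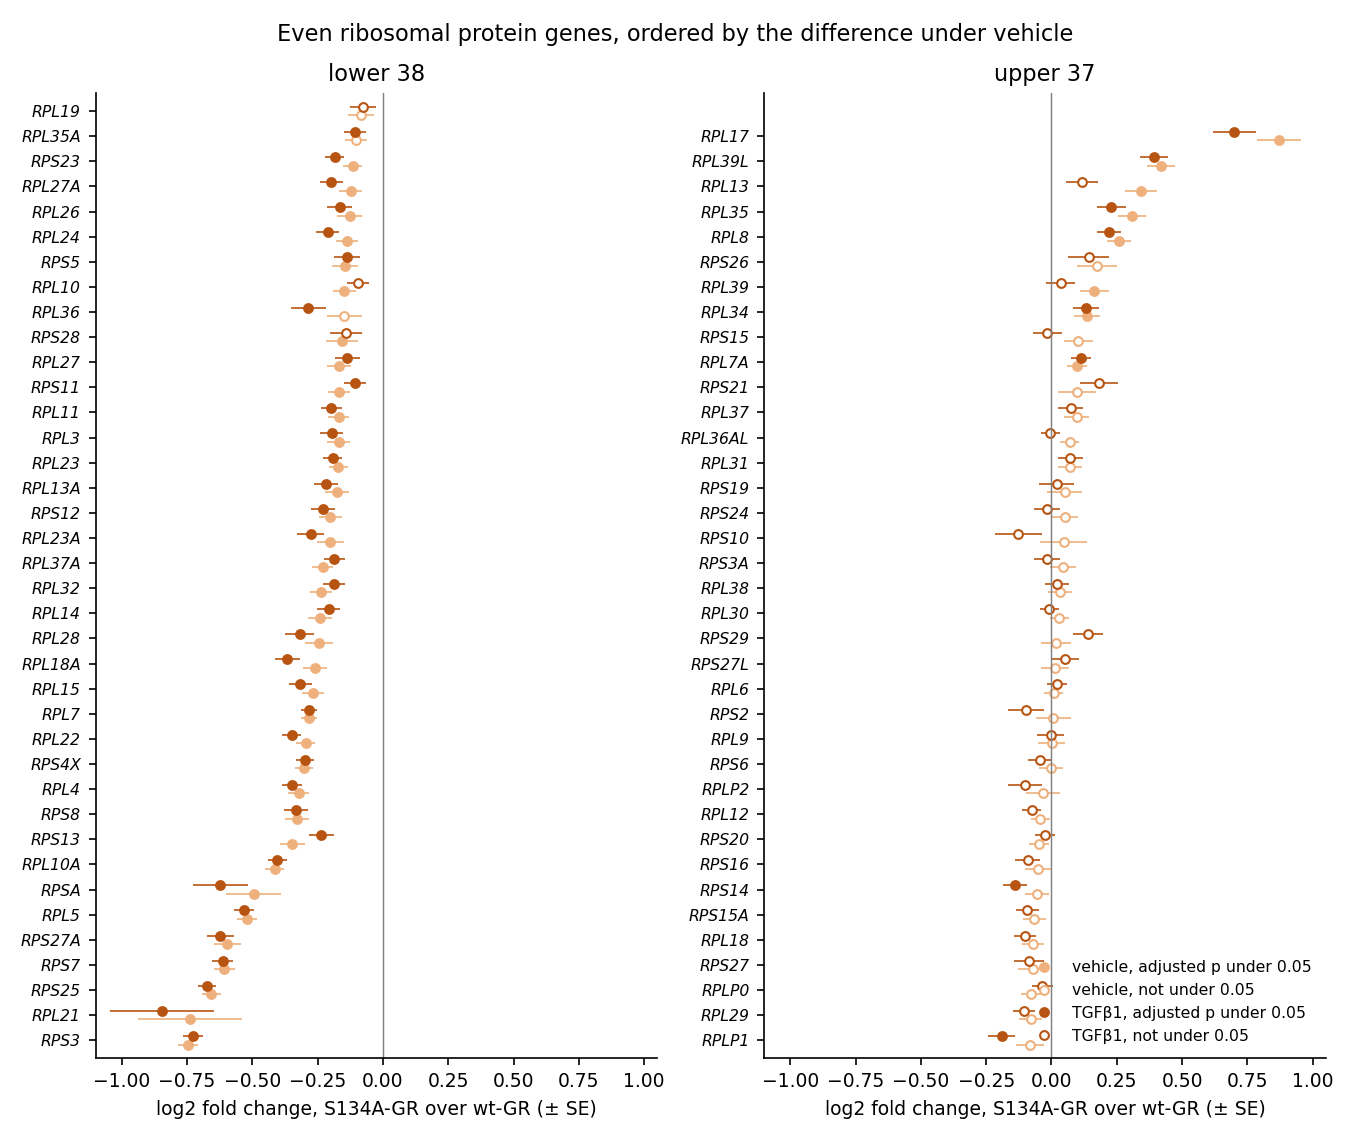
Log2 fold change of S134A-GR over wt-GR for each of the 75 even genes, under vehicle (light) and TGFβ1 (dark), ordered by the value under vehicle, with bars of 1 SE. Filled points have an adjusted p under 0.05. The range under vehicle runs from -0.75 (RPS3) to 0.87 (RPL17).

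The members' differences between the lines were set beside those of nearby genes. For each even member, the median log2 fold change of other genes within 5 Mb, members excluded, was taken as the value of its neighbourhood, which 74 members had. RPS3 lies at chr11:75399515-75422280, and its 58 neighbours had a median of -0.55 under vehicle against its own -0.75. RPS25, on the same chromosome at chr11:119015712-119018691, had 49 neighbours with a median of -0.62 against its own -0.66. RPS27A on chromosome 2, RPL21 on chromosome 13 and RPL5 on chromosome 1 likewise lay among genes with medians of -0.57, -0.57 and -0.40. Of the 34 members called lower that had a neighbourhood value, 26 lay among genes with a median below 0 under vehicle, and all 8 called higher lay among genes with a median above 0, although for RPL17 and RPL39L that median was 0.02 and 0.00. Of all 74 neighbourhoods 37 had a median below 0. Under TGFβ1 these numbers were 27 of 36 and 6 of 6, with 38 of 74 below 0.

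Some members departed from their surroundings. RPL17 and RPL39L were higher while their neighbours were at 0.02 and 0.00 under vehicle, and RPSA differed by -0.49 where its 41 neighbours were at -0.17. RPL6 on chromosome 12, named here after its values were seen, was at 0.01 where its 64 neighbours were at 0.23. Across the 74 members, the correlation of member and neighbourhood was r = 0.664 and rho = 0.574 under vehicle and r = 0.719 and rho = 0.662 under TGFβ1. Without the 2 members with the most extreme neighbourhoods, r was 0.592 (RPL21 and RPS25 left out) and 0.655 (RPS3 and RPS25 left out). This is a description across genes, which are not independent replicates, share all libraries and in part share neighbours.

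**Figure D4:**
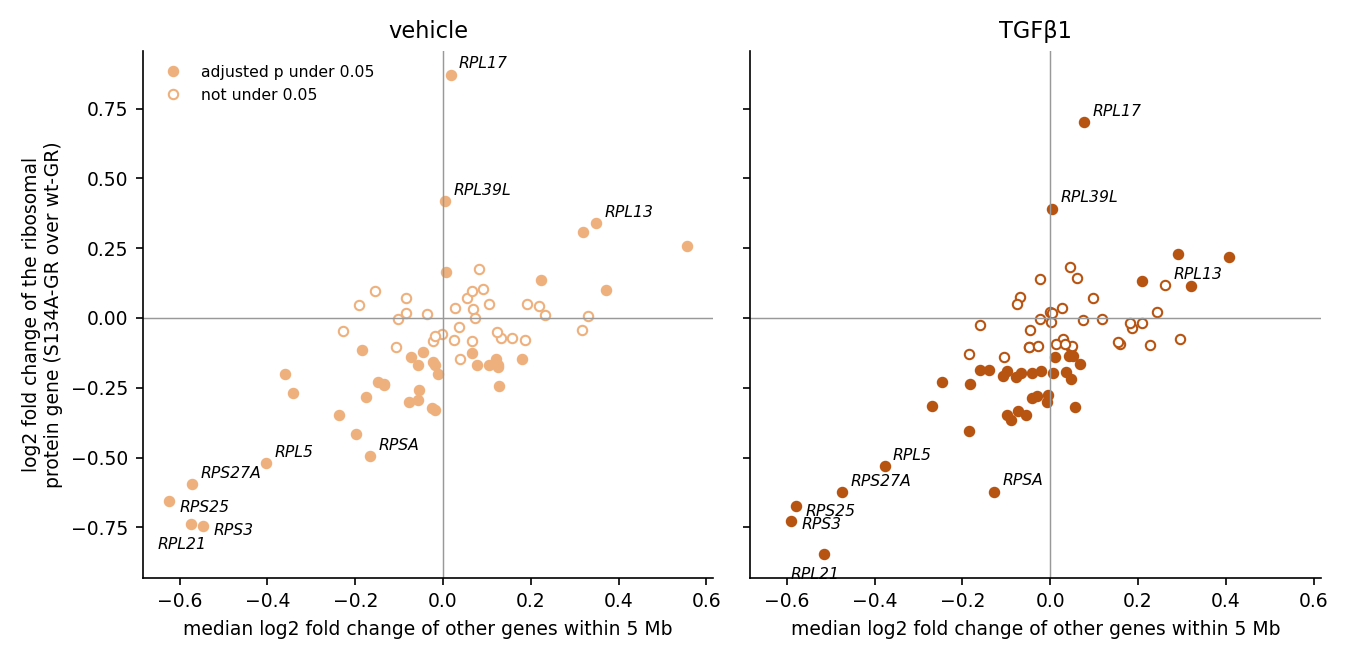
Log2 fold change of each of 74 even genes (vertical) against the median log2 fold change of other genes within 5 Mb (horizontal), for S134A-GR over wt-GR under vehicle (left) and TGFβ1 (right). Filled points have an adjusted p under 0.05. RPS3, RPS25 and RPL21 sit low on both axes, whereas RPL17 and RPL39L are high beside neighbours near 0.

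After 6 h of TGFβ1 nearly every even member had a slightly higher mean, in both lines, and none was lower at an adjusted p under 0.05. In wt-GR 26 of 75 (34.7%) passed as higher, against 11.2% of all genes tested and 14.8% of even genes, while 9.82% and 12.8% of those were lower. In S134A-GR 12 (16%) passed as higher, against 10.0% and 13.5%, while 8.69% and 11.4% were lower. The log2 fold change was above 0 for 74 of 75 members in each line, where 9126 and 8805 of the 18579 genes tested were above 0. The size factors hold the latter near an even split. The median member differed by 0.12 in wt-GR and 0.09 in S134A-GR, that is by 8.64% and 6.29%. When each library was scaled to the members' own median, which removes a step that they share, 0 members passed as higher in either line, and 3 passed as lower in wt-GR and 1 in S134A-GR. No share of all genes was taken under that scaling. Without overlap, all TGFβ1 libraries lay above all vehicle libraries for 27 members in wt-GR, where 21.4% of even genes did, and for 48 in S134A-GR, where 23.4% did. No even member had all TGFβ1 libraries below all vehicle libraries in either line, where 20.3% and 21.0% of even genes did. The count in wt-GR depended on replicate 3 of the vehicle group, the library already described. Without that library 58 members passed in wt-GR and 29 in S134A-GR, where 12.7% and 11.3% of all genes tested did. Without both libraries that stood apart the numbers were 60 and 9, where 12.4% and 9.87% did. Leaving out other libraries lowered the wt-GR count to 9 and the S134A-GR count to 0, the latter without replicate 2 of S134A-GR under TGFβ1. The share of all genes called was not taken in those fits, so these lower counts have no background beside them.

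RPL9, of the large subunit, was counted at 27180, 28458 and 30920 in wt-GR under vehicle and at 34728, 33414 and 32293 under TGFβ1 (0.22 ± 0.05, adjusted p = 0.00895). In S134A-GR it was at 27629, 28504 and 30371 under vehicle and at 33672, 34947 and 31659 under TGFβ1 (0.21 ± 0.05, adjusted p = 0.0108), and neither line showed overlap. Among the members that passed, RPL13 had the largest step in wt-GR (0.25 ± 0.06, adjusted p = 0.00877) and one of 0.03 ± 0.06 in S134A-GR (adjusted p = 0.815). RPL34 was similar, with 22590, 23198 and 25696 against 27223, 27452 and 27109 in wt-GR (0.20 ± 0.05, adjusted p = 0.0119) and 0.19 ± 0.05 in S134A-GR (adjusted p = 0.0146). RPL24, which helps to bridge the subunits, rose by 0.20 ± 0.04 in wt-GR (adjusted p = 0.00337) and 0.13 ± 0.04 in S134A-GR (adjusted p = 0.0493). RPL39, at the exit tunnel, rose in wt-GR by 0.21 ± 0.06 (adjusted p = 0.0156) and was at 0.08 ± 0.06 in S134A-GR (adjusted p = 0.393). Among the members that passed in S134A-GR, the largest steps after RPL9 and RPL34 were those of RPS13 (0.16 ± 0.05, adjusted p = 0.0335), RPL27 (0.15 ± 0.05, adjusted p = 0.0391) and RPL6 (0.14 ± 0.04, adjusted p = 0.0143). These small steps rested on few libraries. The calls on RPL9, RPL34, RPS13, RPL27 and RPL6 in S134A-GR were all lost without replicate 2 of the TGFβ1 group, and those on RPL34 and RPL39 in wt-GR without replicate 1 or replicate 2 of the vehicle group. RPS13 was the single small-subunit member of 29 that passed in S134A-GR (3.45%), against 8 in wt-GR (27.6%). Of even genes 13.5% and 14.8% were higher. All 29 had a log2 fold change above 0 in both lines, with medians of 0.10 in S134A-GR and 0.11 in wt-GR. Of these members 0 passed the test of the difference in response. RPL39L was the one even member whose log2 fold change was below 0, and it was so in both lines (-0.05 ± 0.05 and -0.07 ± 0.05, adjusted p = 0.609 and 0.396).

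**Figure D5:**
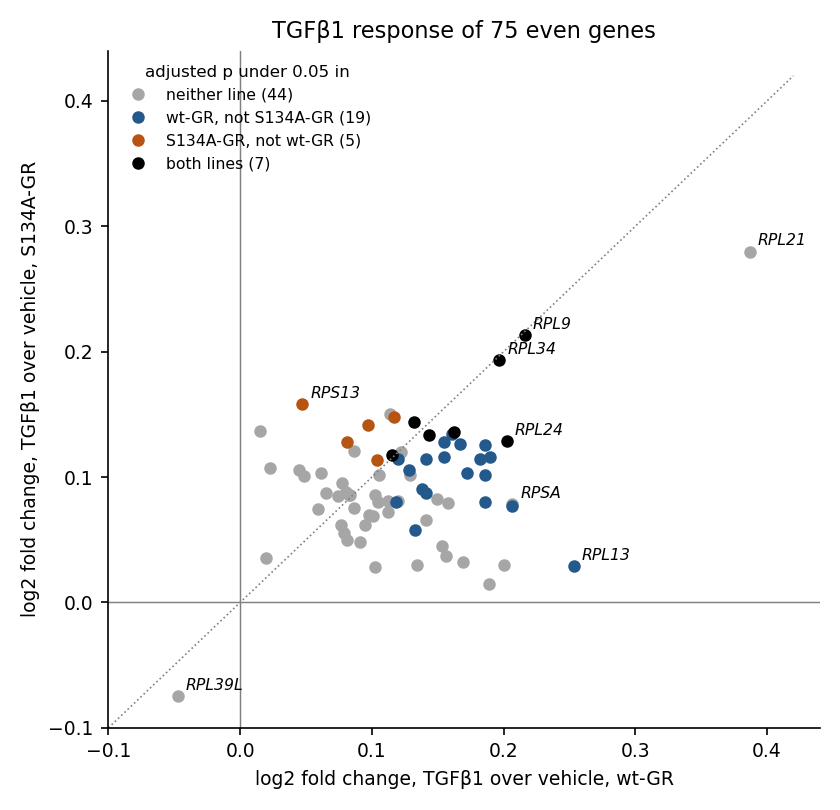
Log2 fold change of TGFβ1 over vehicle in wt-GR (horizontal) and S134A-GR (vertical) for the 75 even genes. Black points passed an adjusted p under 0.05 in both lines (7), blue points in wt-GR (19), orange points in S134A-GR (5) and grey points in neither (44), and the dotted line marks equal values. RPL39L alone lies below 0 on both axes.

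Whether the response to TGFβ1 differed between the lines was asked by testing the difference itself. No even member passed the test of the difference (S134A-GR minus wt-GR) at an adjusted p under 0.05, where 0.414% of all genes tested did. By limma 1 member had an unadjusted p under 0.05, and edgeR and DESeq2 also called 0. The differences ran from -0.22 to 0.12 with a median of -0.03, and 53 of 75 were below 0. The lowest was that of RPL13, whose mean went from 125316 ± 13169 to 148891 ± 5738 in wt-GR and from 158205 ± 5629 to 161447 ± 6216 in S134A-GR (SD, n = 3). Its difference was -0.22 ± 0.09 (adjusted p = 0.437). Without replicate 3 of wt-GR under vehicle it was -0.31 ± 0.06 (adjusted p = 0.0372), so the call on RPL13 turned on 1 library. Without both libraries that stood apart RPL13 and RPS2 passed (-0.34 ± 0.06 and -0.25 ± 0.05, adjusted p = 0.0266 and 0.0497).

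Several members have a paralogue, and the pairs differed in how evenly they were measured. RPL36AL was at 25935, 26328 and 27965 in wt-GR under vehicle, where its X-linked counterpart RPL36A was at 135, 161 and 146. RPL36AL did not pass between the lines (0.07 ± 0.04 under vehicle, adjusted p = 0.125, and 0.0239 without replicate 3 of wt-GR), unlike RPL36A. RPL39 was higher in S134A-GR under vehicle (0.16 ± 0.06, adjusted p = 0.0221) and RPL39L by 0.42, as given above. The call on RPL39 was lost without replicate 1 or 2 of wt-GR or replicate 2 of S134A-GR under vehicle (adjusted p up to 0.091). RPS27 and RPS27L passed in no comparison. RPL10, whose paralogue RPL10L was near 0, was lower in S134A-GR under vehicle (-0.15 ± 0.04, adjusted p = 0.0106). RPL3 was lower in S134A-GR by -0.17 ± 0.04 and -0.20 ± 0.04 (adjusted p = 0.00414 and 0.00162), RPL22 by -0.30 ± 0.04 and -0.35 ± 0.04 (adjusted p = 1.12e-05 and 2.52e-06) and RPL7 by -0.28 ± 0.03 in each (adjusted p = 2.90e-06 and 3.53e-06). Their paralogues RPL22L1 and RPL7L1, which the symbol rule leaves out, were lower as well, by -0.22 ± 0.05 and -0.18 ± 0.03 under vehicle (adjusted p = 0.00213 and 0.000370). RPL26 was lower by -0.13 ± 0.05 under vehicle (adjusted p = 0.0417) while RPL26L1 was higher by 0.16 ± 0.05 (adjusted p = 0.0112). The call on RPL26 was lost without any of 6 single libraries (adjusted p up to 0.179) and that on RPL26L1 without replicate 2 of wt-GR under vehicle (0.0607). FAU, which encodes a ribosomal protein fused to a relative of ubiquitin, was lower under vehicle by -0.33 ± 0.04 (adjusted p = 9.32e-06).

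Other genes of the pathway were read from lists of translation and ribosome assembly factors, whose counts stand beside the shares of all genes given above (25.0% higher and 26.5% lower under vehicle, 11.2% and 10.0% higher with TGFβ1 in wt-GR and S134A-GR). The lists were not limited to even genes, unlike the shares of even genes set beside some of them. Neighbourhood values were taken for members only, so the part of chromosomal position in the differences of these listed genes was not tested. Of 15 factors whose mRNAs also carry TOP tracts, 10 were lower and 0 higher in S134A-GR under vehicle, and 9 and 1 under TGFβ1, with medians of -0.19 and -0.23. TPT1, EEF1A1 and EEF1B2 differed most, by -0.66 ± 0.05, -0.61 ± 0.04 and -0.53 ± 0.05 under vehicle (adjusted p = 1.11e-07, 4.65e-08 and 4.69e-07). EEF1A1, the carrier of aminoacyl-tRNA, averaged 901503 normalized counts in wt-GR and 590647 in S134A-GR under vehicle. Of 26 factors of RNA polymerase I and the nucleolus, 9 were higher (34.6%) and 8 lower (30.8%) under vehicle, where 30.5% and 32.9% of even genes were, among the lower POLR1D, a shared subunit of polymerases I and III, by -0.55 ± 0.04 (adjusted p = 1.29e-07). Of 22 maturation factors 8 were higher and 11 lower. PNO1, which is needed late in small-subunit maturation, was the maturation factor that differed most (-0.68 ± 0.05, adjusted p = 5.39e-08). The 77 mitochondrial ribosomal proteins, which serve a separate ribosome, were split between 23 higher (29.9%) and 26 lower (33.8%), near the same shares, with a median of 0.00, and included MRPS21 at 0.90 ± 0.07 and MRPS31 at -0.83 ± 0.06 (adjusted p = 2.16e-07 and 1.07e-07). Among 17 regulators of mTORC1, S6 kinase and LARP1, 5 were higher and 5 lower under vehicle, DEPTOR by 1.01 ± 0.23 and DDIT4 by -0.80 ± 0.08 (adjusted p = 0.00185 and 1.91e-06). Under TGFβ1 4 were higher and 5 lower, DDIT4 by -0.91 ± 0.08 (adjusted p = 6.27e-07). There no gene of this list exceeded 0.56, and DEPTOR was not among the 3 largest called differences.

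With TGFβ1, the assembly factors moved further than the ribosomal proteins. Of the 22 maturation factors 19 were higher in wt-GR and 18 in S134A-GR, with medians of 0.19 and 0.20 and none lower. Of the 26 polymerase I and nucleolar factors 15 and 14 were higher, and 1, RRN3, was lower in S134A-GR. RRN3 was scattered there, at 569 ± 233 normalized counts under vehicle and 240 ± 58 under TGFβ1 (SD, n = 3). RRP12, an export factor for both subunits, differed by 0.60 in wt-GR and 0.44 in S134A-GR (adjusted p = 7.87e-07 and 2.10e-05). The TOP-bearing factors had 6 higher of 15 in each line, and the mitochondrial ribosomal proteins 20 and 9 of 77. The latter is 11.7%, near the 10.0% of all genes and 13.5% of even genes. No gene of these lists passed the test of the difference in response at an adjusted p under 0.05, where limma gave 4, 3, 0 and 4 unadjusted p under 0.05 in the nucleolar, maturation, TOP-bearing and mitochondrial lists.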

How the data were processed

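RNA was measured in 12 libraries (TruSeq kit, HiSeq, paired-end reads of 75 bases). Per the study's methods, the authors used FastQC 0.11.7 for quality and Trimmomatic for trimming. HISAT2 mapped the reads onto hg38, featureCounts (Subread) gave counts per gene, and the authors divided these by DESeq2 1.22.2 size factors. The annotation, the strand setting and the use of alternate scaffolds are not given in the sources used here. The deposited signal values are these normalized counts, 1 value per gene and library, and whole reads were recovered from 100% of them within 0.001 of a whole number. Size factors ran from 0.614 to 1.40, and a level of 3 reads was taken as the floor, which covers counting error only.

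The main test was limma 3.58.1 in R 4.3.3 on log2(normalized count + 1), with 4 group means, a trended empirical Bayes variance and Benjamini-Hochberg adjustment over the 18579 genes that had 10 or more reads in all 12 libraries together. A gene was called at an adjusted p under 0.05 and any fold. Fold changes are on this log2 scale, with SE, and SDs are over 3 replicates. The fits, edgeR 4.0.16 (quasi-likelihood, TMM) and limma, were tested on simulated data, and DESeq2 1.42.0, other filters, pseudocounts, scalings, member limits, a replicate block and leaving out each library were alternatives. A further 2 alternatives were chosen after seeing the data, namely leaving out the 2 libraries that stood apart and scaling to the members' median. The members and the gene lists were chosen with earlier results of these data known.

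Genes named are members set apart, the 5 even members with the largest called change in each direction of each comparison, the 5 highest and 5 lowest levels per kb, paralogue pairs, the stalk and 5S genes with RPS6, RPS3, RPSA and FAU, and of each other list genes among the 3 with the largest called differences between the lines, except that some genes under this rule are not reported here. Levels per kb used coding length in place of the exon length first intended, because transcripts of some members are annotated with long untranslated parts. Gene positions, coding lengths and exon stretches came from GENCODE v44, exact 75-base copies from hg38, and start-site sequences from RefSeq (GRCh38.p14). The promoter table held 65 of the 82 members. Neighbours were genes averaging at least 100 normalized counts within 5 Mb, and a neighbourhood needed at least 10.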

Additional observations from a re-analysis of the deposited data

How the results depend on the processing

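Of 333 counts and medians recomputed under an alternative, 302 stayed within their limits (1.5 times a count, or 0.0495, the SD of the members' median between replicates), 31 moved and 0 reversed. Of 4054 values for single genes, 50 became significant, 119 lost significance and 0 reversed. Without both libraries that stood apart, 15 members were higher in S134A-GR under vehicle, 60 were higher with TGFβ1 in wt-GR and 2 differed in response. Scaling to the members' median gave 20 higher and 20 lower under vehicle, 24 and 17 under TGFβ1, 0 higher and 3 lower with TGFβ1 in wt-GR, and 0 and 1 in S134A-GR. For that scaling no share of all genes was taken. With only the groups compared in the fit, 8 were higher with TGFβ1 in wt-GR, and this fit could not be made for the difference in response, which needs all 4 groups. With the uneven members included 1, RPS9, was lower with TGFβ1 in wt-GR. DESeq2 called 25 higher with TGFβ1 in S134A-GR, against 12. No share of all genes was taken for DESeq2 or for the fit with only the groups compared.

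Leaving out each of the 12 libraries in turn gave 5 to 14 members higher and 30 to 38 lower in S134A-GR under vehicle, 4 to 9 and 32 to 41 under TGFβ1, 9 to 58 higher and 0 to 0 lower with TGFβ1 in wt-GR, 0 to 29 and 0 to 0 in S134A-GR, and 0 to 1 that differed in response. The medians ran from -0.13 to -0.04, from -0.14 to -0.09, from 0.10 to 0.17 and from 0.07 to 0.11 in the same order. Under vehicle 5 were called higher without wt-GR vehicle replicate 1, wt-GR vehicle replicate 2 or S134A-GR vehicle replicate 2, and 14 without wt-GR vehicle replicate 3. With TGFβ1 in wt-GR, 9 were called without wt-GR vehicle replicate 1 or 2 or wt-GR TGFβ1 replicate 1, and 12 without wt-GR TGFβ1 replicate 2. In S134A-GR, 4, 3 and 2 were called without vehicle replicates 1, 2 and 3, and 4 and 0 without TGFβ1 replicates 1 and 2. Of these fits, a share of all genes was taken only without wt-GR vehicle replicate 3, for genes higher with TGFβ1. The other counts have no background beside them.

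Replicate numbers are shared across groups in the labels, but same-numbered libraries did not deviate together (mean r = 0.00089, from -0.15 to 0.15, over 12468 genes). Differently numbered libraries gave a mean r of -0.00032, from -0.20 to 0.22. These correlations cannot show whether same-numbered libraries shared a culture day or a preparation. With the replicate block 7 members were higher with TGFβ1 in S134A-GR, against 12, and the other counts stayed within 1.5 times. No share of all genes was taken with the block. Depth did not limit the even members, the lowest of which averaged 937 normalized counts.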
